A study of Homo sapiens with 4 samples.

Results

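The serine synthesis and folate one-carbon enzymes were described here by 10 genes: PHGDH, PSAT1, PSPH, SHMT1, SHMT2, MTHFD1, MTHFD1L, MTHFD2, ALDH1L1 and ALDH1L2. They were chosen by name, and each was read by the probe sets whose only annotated gene symbol was that name. All 10 genes had such a probe set, 22 of the 54613 probe sets in the table, out of 19775 genes read in this way. A further 5 probe sets name a member together with other genes and were not used: 2 of them name SHMT1, 2 name MTHFD1L and 1 names PHGDH.

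The study measured gene expression with Affymetrix arrays in HuH7, a human hepatocellular carcinoma cell line. There were 2 arrays of HuH7 with wild-type KDM6B and 2 of KDM6B knockout HuH7. KDM6B encodes a demethylase that removes methyl groups from lysine 27 of histone H3. The knockout was made by transfecting a guide RNA vector and a hCas9 vector, selecting with G418 and deriving several subclones by limiting dilution. Nothing in the labels tells if both knockout arrays hold the same subclone, if wild-type cells were transfected or selected, or if arrays of a group stand for separate cultures. Every p-value below thus reflects only how far these arrays scatter, which may be technical. Effects of KDM6B loss and of subcloning cannot be told apart.

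Cells make serine from the glycolytic intermediate 3-phosphoglycerate in consecutive steps by PHGDH, a dehydrogenase, PSAT1, an aminotransferase, and PSPH, a phosphatase. Serine hydroxymethyltransferases then move a carbon from serine to tetrahydrofolate and leave glycine. This happens in parallel in the cytosol, with SHMT1, MTHFD1 and ALDH1L1, and in mitochondria, with SHMT2, MTHFD2, MTHFD1L and ALDH1L2, and formate made in mitochondria links the compartments. Many of these genes are targets of ATF4, a transcription factor of the amino acid and stress response, and liver is a main site of folate metabolism.

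KDM6B itself, read at its brightest probe set, gave 8.46 and 8.27 in wild type, against 7.95 and 8.14 in knockout on the log2 scale, and its difference of -0.32 (SE 0.13) did not pass the test (limma adjusted p = 0.328). The other KDM6B probe sets gave -0.21, -0.25, -0.40 and -0.28, and none passed. Among the KDM6B probe sets the groups overlapped only at 1556066_at (-0.25). A cut in the gene need not lower its mRNA, so these values do not check the labels. Over all probe sets, the correlation of replicates was 0.992 for wild type and 0.994 for knockout, and 0.985 to 0.989 across groups. The 7 hepatocyte markers examined had group means of 10.97 to 13.89, with albumin (ALB) at 13.80 in wild type and 13.89 in knockout. Of them, 2 were called lower in knockout, APOB and SERPINA1, so part of the hepatocyte list moved in the same direction as the enzymes below. Of 12 markers of fibroblasts, leukocytes and endothelium, 0 were called by limma (2 at an unadjusted p under 0.05, LYZ and PECAM1), with COL1A1 at 7.01 and 7.14, LYZ at 10.93 and 9.35, and PECAM1 at 7.27 and 6.39 in wild type and knockout. The other leukocyte and endothelial markers read had wild-type means of at most 5.01 and log2 differences of -0.25 to 0.08. LYZ and PECAM1 thus did not stand for their lists. Of 5 leukocyte markers listed, 3 had a probe set that could be read. The part of these markers in the results was not tested.

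Among the 10 enzymes, SHMT2 fell in knockout at all 3 of its probe sets and PSAT1 at 1 of 2, and none rose. In all, 4 of 22 probe sets were called lower at a limma adjusted p under 0.05 and 0 higher, against 1.63% lower and 1.27% higher among all probe sets (2.91% in either direction). Knockout arrays lay wholly below wild-type arrays at 11 of the 22 (19.9% of all probe sets) and wholly above at 1 (20.5%), and 15 had a lower mean (47.2%). Each gene read by its brightest probe set, 1 of 10 was called lower and 0 higher, where 2.62% of all genes were called lower and 4.82% in either direction. The median difference over the 10 genes was -0.30 on the log2 scale (all genes 0.01), and 8 of 10 had a lower mean in knockout (48.0% of all genes). All differences are knockout minus wild type of log2 values, and with 2 arrays a group the number of arrays limits the precision. In RNA from whole cultures, fewer cells that express a gene and less RNA per cell cannot be told apart.

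**Figure D1:**
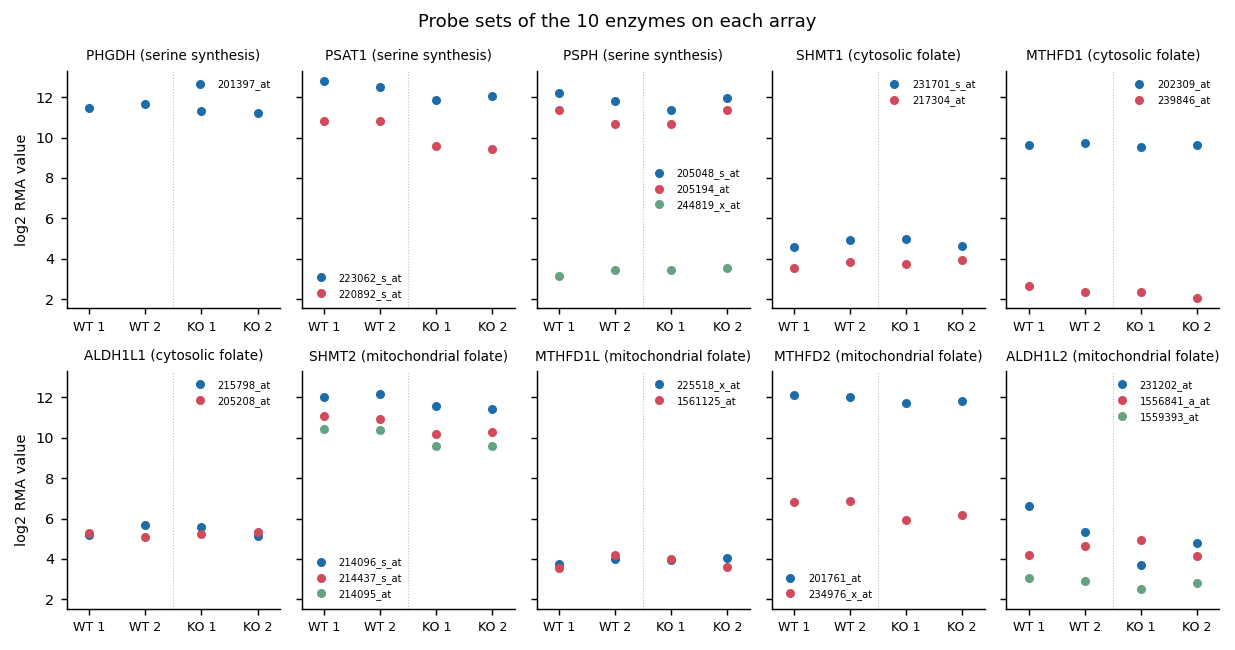
Log2 RMA value (vertical axis) of every probe set of the 10 enzymes on each of the 4 arrays (WT, wild type; KO, knockout); points are single arrays and colours mark the probe sets of a gene. The 3 SHMT2 and 2 PSAT1 probe sets lie lower on both knockout arrays than on both wild-type arrays, whereas those of SHMT1 and ALDH1L1 overlap.

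Of the serine synthesis enzymes, PHGDH, which commits 3-phosphoglycerate to serine, read 11.47 and 11.65 in wild type, against 11.33 and 11.20 in knockout. Both knockout arrays were below both wild-type arrays, but the log2 difference of -0.29 (SE 0.10) did not pass (adjusted p = 0.263). PSAT1, which transfers the amino group from glutamate, was read by a pair of probe sets. Its probe set 220892_s_at read 10.80 and 10.84 in wild type, against 9.60 and 9.45 in knockout, a 2.46-fold fall (log2 difference -1.30, SE 0.10, adjusted p = 0.0050). The brighter probe set, 223062_s_at, read 12.78 and 12.49 in wild type, against 11.86 and 12.04 in knockout, with a difference of -0.69 (SE 0.12) that just missed the threshold (adjusted p = 0.0522). It passed when each gene entered the fit by its brightest probe set alone (adjusted p = 0.0364), where 3.94% of genes were called lower. The groups did not overlap at either PSAT1 probe set, and the dimmer minus the brighter was -1.98 and -1.65 in wild type, against -2.26 and -2.59 in knockout. The names of both mark them as able to match several transcripts. PSAT1 was thus not read at all when such probe sets were dropped.

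PSPH, which releases serine from phosphoserine, differed between its probe sets and between replicates. Its brightest, 205048_s_at, read 12.22 and 11.81 in wild type, against 11.39 and 11.95 in knockout, and 205194_at read 11.38 and 10.66 in wild type, against 10.69 and 11.35 in knockout. At both, wild type 1 and knockout 2 were high and wild type 2 and knockout 1 low, by gaps of 0.41 to 0.73 within a group, and the groups overlapped. The differences were -0.35 (SE 0.22, adjusted p = 0.587) and 0.00 (SE 0.30). The remaining probe set, 244819_x_at, read 3.14 to 3.54, below the 25th percentile of each array, so its difference of 0.21 was not shown to be above background.

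SHMT2, the mitochondrial serine hydroxymethyltransferase, fell 1.51- to 1.77-fold. Its brightest probe set, 214096_s_at, read 12.00 and 12.19 in wild type, against 11.56 and 11.44 in knockout. The group means were 12.09 ± 0.14 and 11.50 ± 0.09 (SD, n = 2 each), and the log2 difference was -0.60 (limma SE 0.10, adjusted p = 0.0441). Probe set 214437_s_at read 11.09 and 10.93 in wild type, then 10.21 and 10.29 in knockout (-0.75, SE 0.10, adjusted p = 0.0216). The last, 214095_at, is the only SHMT2 probe set whose name does not mark it as able to match several transcripts. It read 10.44 and 10.41 in wild type, against 9.60 and 9.61 in knockout, the difference of largest size for this gene (-0.82, SE 0.09, adjusted p = 0.0121). At all 3 the groups stood apart by more than the gap between replicates, and since all 3 read the same gene on the same arrays they are not independent.

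The calls of SHMT2 and PSAT1 rested on having all 4 arrays. With any array left out no member probe set was called (lowest adjusted p 0.0828, for PSAT1), although differences lay between -0.83 and -0.50 for SHMT2 and between -1.37 and -1.22 for PSAT1 at 220892_s_at. Over the whole table, 0 probe sets were called by limma without knockout 1 or without knockout 2 (4670 and 4947 at an unadjusted p under 0.05), 82 without wild type 1 and 55 without wild type 2. Of the other pathway genes given below, CTH alone was called when an array was left out, and only without wild type 1 (adjusted p = 0.0499) or without wild type 2 (adjusted p = 0.0458). It was not called without knockout 1 (0.203) or without knockout 2 (0.172). Member probe sets called lower, beside the share of all probe sets tested, were 0 (0.0568%) without wild type 1, 0 (0.0421%) without wild type 2, 0 (0.0641%) with the array number as a replicate block and 1 (0.577%) without the intensity trend. They were 1 of 13 (1.14%) without probe sets that may cross-hybridise, 4 (1.57%) with arrays centred on their medians, 6 (1.92%) with quantile normalization repeated, 6 of 14 (4.4%) among probe sets at or above the median level, 6 (3.1%) at an adjusted p under 0.10 and 10 (4.65%) with a block that joins arrays of unlike number (wild type 1 to knockout 2, wild type 2 to knockout 1), chosen after the data were seen.

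MTHFD2, the mitochondrial methylenetetrahydrofolate dehydrogenase that is raised in many tumours, read 12.13 and 12.03 in wild type, against 11.73 and 11.81 in knockout at its brightest probe set. The difference of -0.31 (SE 0.09) did not pass (adjusted p = 0.153). A dimmer probe set, 234976_x_at, read 6.84 and 6.86 in wild type, against 5.95 and 6.20 in knockout, with -0.77 (SE 0.14, adjusted p = 0.0545). Groups did not overlap at either, and with the mean of both probe sets in a fit over genes MTHFD2 was called (-0.54, adjusted p = 0.0257), where 3.88% of genes were called lower. In SHMT2, PSAT1 and MTHFD2 alike, the brightest probe set of the gene gave the difference of smallest size. The same order held in the cytosolic MTHFD1, SHMT1 and ALDH1L1. In PSPH, ALDH1L2 and MTHFD1L the brightest gave the difference of largest size instead. Signals of different probe sets do not compare as levels, and what this order reflects was not tested.

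ALDH1L2, the mitochondrial dehydrogenase that oxidises formyltetrahydrofolate, had, at its brightest probe set, the difference of largest size among the 10 genes and the largest SE. That probe set, 231202_at, read 6.64 and 5.34 in wild type, against 3.71 and 4.81 in knockout. The knockout arrays were both below the wild-type ones and under their array medians, but replicates lay 1.30 and 1.09 apart, and the difference of -1.73 (SE 0.52) did not pass (adjusted p = 0.180). With an array left out it lay between -2.38 (without wild type 2) and -1.08 (without wild type 1), and with the mean of all its probe sets it was -0.65, smaller in size than PSAT1 (-0.99) and SHMT2 (-0.72) read in that way. Its other probe sets gave 0.12 (SE 0.30) and -0.34 (SE 0.16), both below the array medians on all 4 arrays. MTHFD1L, which makes formate in mitochondria, was read by a pair of probe sets between 3.57 and 4.18 on all arrays, below every array median (4.96 to 5.05). Their differences of 0.11 (SE 0.18) and -0.07 (SE 0.26) say little about this gene, since neither was shown to be above background and 2 more that name it with other genes were not read.

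The cytosolic enzymes gave 0 calls by limma, and 0 of the 3 brightest probe sets had an unadjusted p under 0.05. MTHFD1, the cytosolic enzyme that interconverts formate, methenyl- and methylenetetrahydrofolate, read 9.65 and 9.71 in wild type, against 9.55 and 9.61 in knockout. Its difference was -0.10 (SE 0.09, adjusted p = 0.766), small although the groups did not overlap. SHMT1, the cytosolic counterpart of SHMT2, read 4.58 and 4.93 in wild type, against 4.99 and 4.62 in knockout at its brighter probe set (0.05, SE 0.21), and 3.53 to 3.93 at the other (0.15, SE 0.18), below the array median on all 4 arrays. ALDH1L1, which oxidises formyltetrahydrofolate in the cytosol, read 5.19 and 5.70 in wild type, against 5.59 and 5.15 in knockout at its brighter probe set (-0.08, SE 0.24) and gave 0.09 (SE 0.16) at the other. The groups overlapped at every SHMT1 and ALDH1L1 probe set. Both genes read near or below the array medians, so their small differences say little about them.

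**Figure D2:**
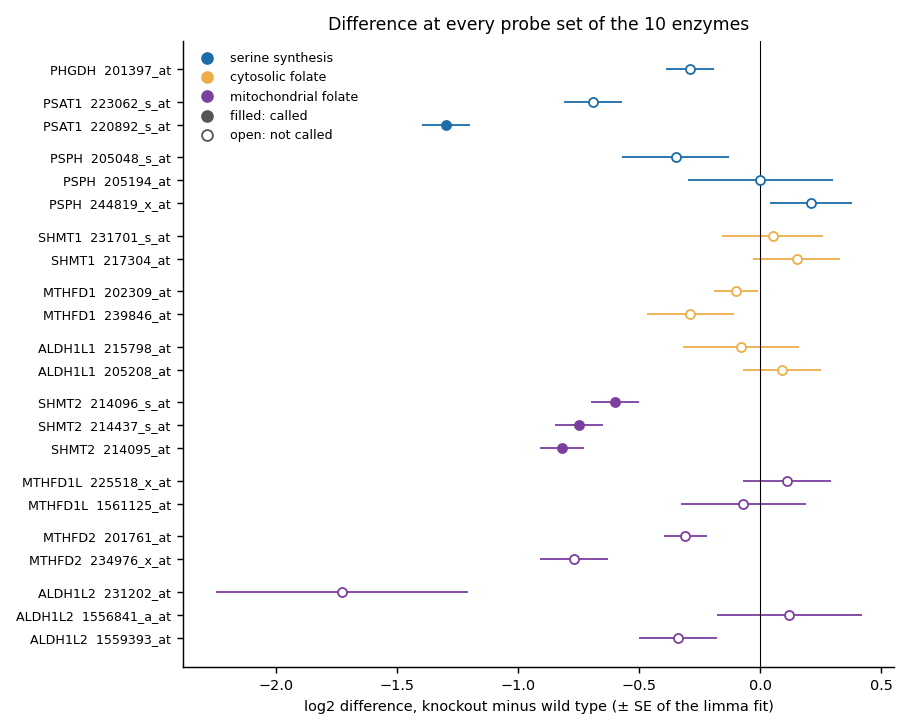
Log2 difference, knockout minus wild type, at each of the 22 probe sets (horizontal axis; bars are the SE of the limma fit), coloured by enzyme group, with filled points called at an adjusted p under 0.05. The 4 called probe sets, 3 of SHMT2 and 1 of PSAT1, lie between -1.30 and -0.60, and the 6 probe sets of cytosolic folate enzymes lie between -0.29 and 0.15.

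Of the 22 member probe sets, 14 had a mean over the 4 arrays at or above the median level of all probe sets (5.01) and 8 lay below it. ALDH1L2 at 231202_at, with a mean of 5.13, was among the 14 only through its wild-type arrays. The difference itself therefore helps to set this split, and no direction is read from it. The 4 called probe sets had means between 10.01 and 11.79.

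**Figure D3:**
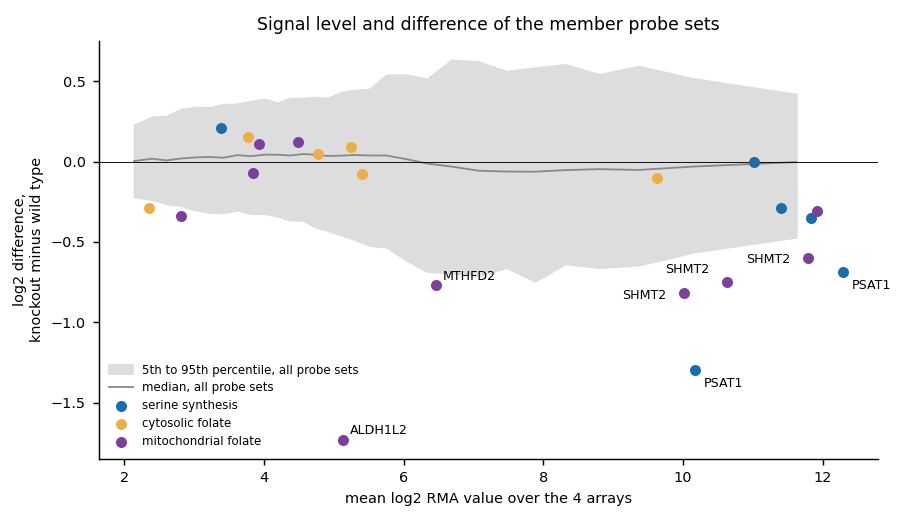
Mean log2 RMA value over the 4 arrays (horizontal axis) against the log2 difference, knockout minus wild type (vertical axis), for the 22 member probe sets (points) and all probe sets (grey band, 5th to 95th percentile in bins of equal size by level; line, median). The SHMT2, PSAT1 and labelled MTHFD2 points and the labelled ALDH1L2 point lie under the level of the band's lower edge. Of the 6 probe sets of cytosolic enzymes 5 lie within it, and the dimmest, of MTHFD1, lies just below.

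The mean difference was -0.63 over the mitochondrial folate enzymes and -0.04 over the cytosolic ones, a contrast given as a description. The mean of the 4 mitochondrial genes minus that of the 3 cytosolic genes, each read by its brightest probe set, was 2.15 and 1.62 in wild type, against 1.03 and 1.56 in knockout. Both knockout arrays were below both wild-type arrays, but knockout 2 and wild type 2 lay close together. The change was -0.59, with SDs of 0.38 in each group (n = 2 each). The contrast is given with no test, and an exact two-sided permutation test of 2 arrays against 2 could not go below p = 0.33. The change came to -0.22 without ALDH1L2, an omission chosen after its value was seen, with 2.81 and 2.63 in wild type, against 2.37 and 2.63 in knockout, so ALDH1L2 carried most of it. The mitochondrial mean itself went from 8.51 ± 0.16 to 7.88 ± 0.20, the cytosolic mean from 6.63 ± 0.22 to 6.58 ± 0.17 and the serine synthesis mean from 12.07 ± 0.12 to 11.63 ± 0.14 (SD, n = 2 each). Of the cytosolic genes SHMT1, and of the mitochondrial genes MTHFD1L, had brightest probe sets below the median level. ALDH1L1 (mean over the arrays 5.41) and ALDH1L2 (5.13) lay only a little above it. Of the cytosolic genes MTHFD1 alone was read well above that level, at a mean of 9.63.

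**Figure D4:**
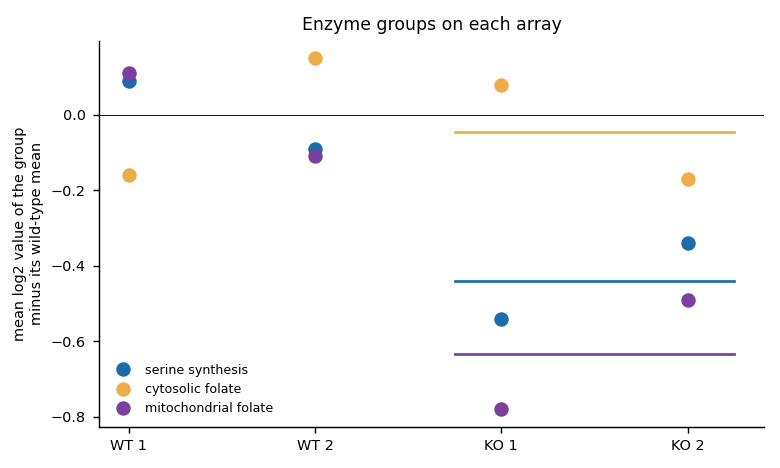
Mean log2 value of each enzyme group on each array minus its own wild-type mean (vertical axis), with points for arrays (WT, wild type; KO, knockout) and horizontal lines for the knockout mean. The knockout means lie at -0.63 for mitochondrial folate enzymes, -0.44 for serine synthesis and -0.04 for cytosolic folate enzymes.

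Other genes of serine, folate and one-carbon metabolism were read from 9 lists of 60 genes, of which 54 had a probe set. By their brightest probe sets 8 were called lower and 1 higher, and 45 did not pass, against 2.62% lower and 2.19% higher among all genes. The median of the 54 genes was -0.14. Calls were found in 5 of the 9 lists, which concern the methionine cycle, choline and sarcosine oxidation, serine and glycine transport, their use, and 3-phosphoglycerate.

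CTH, the lyase that releases cysteine from cystathionine, fell 4.40-fold. It read 10.51 and 10.25 in wild type, then 8.15 and 8.34 in knockout (log2 difference -2.14, SE 0.13, adjusted p = 0.0029), and its second probe set gave -2.06. CBS, the step before it, gave -0.47 at its brightest probe set without passing (adjusted p = 0.0664) and was called at 1 of 3. SRR, serine racemase, fell by 1.25 on the log2 scale (SE 0.17) and was called at all 4 probe sets. Its 20 nearest expressed neighbours on chromosome 17 had a median of -0.39, and 17 of them were lower (48% of all genes), the lowest at -1.18. Of these neighbours 4 were called lower and 0 higher, where 2.62% of all genes were called lower. The part of the region was not tested. In the same list of serine and glycine use 2 of 7 genes were called lower, 0 higher and 5 did not pass.

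In the methionine cycle 4 of 9 genes were called lower (2.62% of all genes), 0 higher (2.19%) and 5 did not pass. By mean, 7 of the 9 were lower and 2 higher, BHMT (0.64, SE 0.15, limma adjusted p = 0.106) and MAT2B (0.05). BHMT2, a methyltransferase that remakes methionine, fell by 0.93 (SE 0.10, limma adjusted p = 0.0119). Of its 20 nearest expressed neighbours 18 were lower (48% of all genes), with a median of -0.29. Of them 2 were called lower and 0 higher. The part of the region was not tested. MTRR, the reductase that keeps methionine synthase active, fell by 0.88 (SE 0.12, limma adjusted p = 0.0221). MAT2A, which makes S-adenosylmethionine, gave -0.60 and AHCY, which clears S-adenosylhomocysteine, -0.47, both called and named here after their values were seen. The methionine synthase gene MTR itself gave -0.30 and did not pass (adjusted p = 0.440). PIPOX, a peroxisomal oxidase that acts on sarcosine, was the 1 called gene of 4 in its list and fell by 1.59 (SE 0.21). SLC1A4, a neutral amino acid transporter that carries serine, fell by 0.89 (SE 0.13), the 1 called gene of 6 transporters, although its 5 probe sets ranged from -0.89 to -0.07 and 2 were called. Its 1 probe set not marked as able to match several transcripts gave -0.07 (adjusted p = 0.968 without the others). That probe set read below the array median on all 4 arrays (mean 4.83), so its small difference says little about SLC1A4.

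Another list held 5 glycolysis genes that act before or after 3-phosphoglycerate, the starting point of serine synthesis. Of these PKM, pyruvate kinase, rose by 0.60 (SE 0.10, limma adjusted p = 0.0434) and 4 did not pass. All 5 had a higher mean in knockout, as had 52% of all genes, with GAPDH at 0.04 (SE 0.10) and ENO1 at 0.12 (SE 0.08). PGK1, which makes 3-phosphoglycerate, gave 0.46 at its brightest probe set (adjusted p = 0.129) and was called higher at 2 of 6. No gene was called among 4 of the glycine cleavage system, 7 of thymidylate and purine synthesis, 5 of other folate interconversion and 7 of folate uptake and retention, with medians of -0.14, -0.16, -0.02 and -0.05. Of these 23 genes, 6 had an unadjusted p under 0.05, as did 20% of all genes, so this count is read as near the background. SLC46A1, the proton-coupled folate transporter, was called higher at 1 of its 4 probe sets (0.77, SE 0.12) but not at its brightest (0.28, adjusted p = 0.300).

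**Figure D5:**
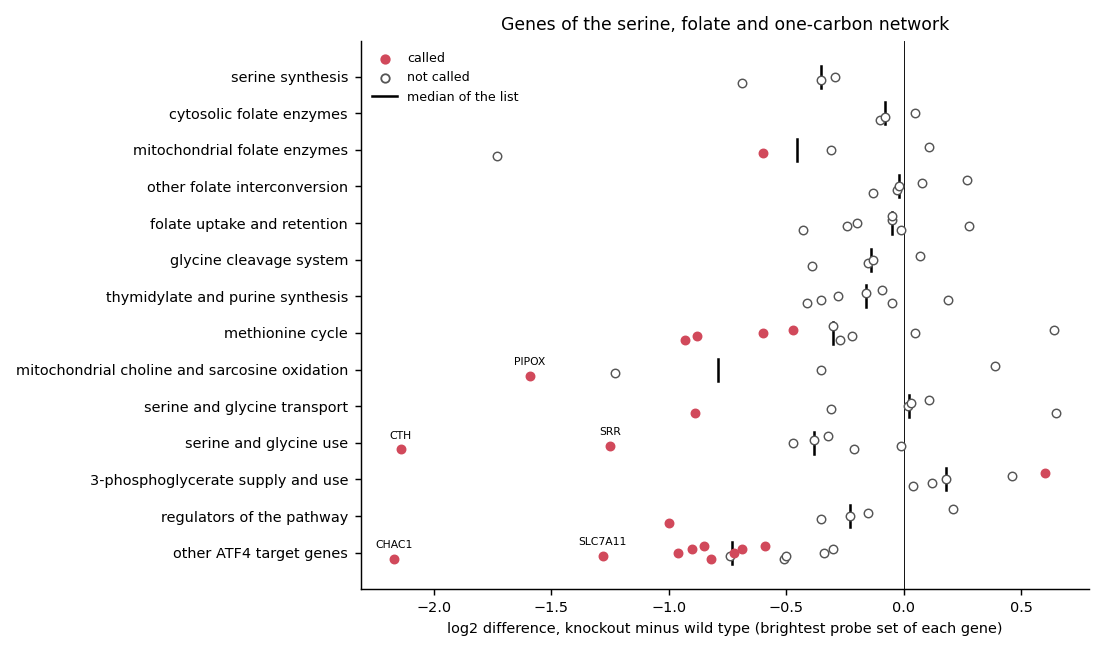
Log2 difference, knockout minus wild type, of each measured gene (horizontal axis; brightest probe set) in the 14 lists, including the 3 that hold the 10 enzymes, with filled points called at an adjusted p under 0.05 and a bar at the median of each list. Points of the list of other ATF4 target genes all lie below 0, with a median of -0.73, while the median of the 3-phosphoglycerate list is 0.18.

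ATF4, read by 1 probe set, gave 12.96 and 12.89 in wild type, against 12.77 and 12.79 in knockout, a difference of -0.15 (SE 0.08) that did not pass (adjusted p = 0.486). Its activity is set largely by translation, so its mRNA need not follow it. Of 14 other ATF4 target genes, 9 were called lower (2.62% of all genes), 0 were called higher and 5 did not pass. The groups of all 14 stood apart with knockout lower (23.5% of all genes). With any of the 4 arrays left out, 0 of the 14 were called by limma. This list was drawn up with earlier results of these arrays in view, in which several of its genes were lower, so its direction is no independent evidence. CHAC1, which degrades glutathione, fell by 2.17 (SE 0.14) and SLC7A11, the cystine transporter, by 1.28 (SE 0.11). MYC, another regulator of serine and folate genes, fell by 1.00 on the log2 scale (SE 0.10, limma adjusted p = 0.0120). It went from 8.95 and 9.04 to 8.03 and 7.95, the 1 called gene of 5 regulators. Of the 20 nearest expressed neighbours, 15 were lower around SLC7A11 (median -0.22), 14 around MYC (-0.10) and 9 around CHAC1 (0.08). Of all genes, 48% had a lower mean. Called lower were 2 around SLC7A11, 2 around MYC and 0 around CHAC1 (2.62% of all genes). The part of these regions was not tested.

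Neighbouring genes were read as a measure of regional shifts. The 20 expressed genes nearest to SHMT2 on chromosome 12 had a median difference of 0.03, with 1 called lower. Those around PSAT1 on chromosome 9 had -0.21, with 14 of 20 lower, 2 called lower, 1 called higher and a range of -1.59 to 1.63. Those around MTHFD2 on chromosome 2 had -0.02. Of all genes, 48% had a lower mean, 2.62% were called lower and 2.19% higher. For the other 7 members the medians of neighbours lay between -0.10, for MTHFD1L on chromosome 6, and 0.19, for PSPH on chromosome 7. The part of the region in the difference of PSAT1 was not tested.

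Promoter sequence was examined because ATF4 binds the C/EBP-ATF response element and MYC the E-box. RefSeq promoter windows of build GRCh38.p14 were held for 7 of the 10 members, with SHMT2, PSPH and ALDH1L2 not among them. The 250 bases before the start were searched on both strands for TGATGNAA, the core of the response element, and for CACGTG, the E-box. Matches may overlap, and a window counts for each motif it holds. Of 27305 such windows, 1 per gene, 3.19% held the first and 6.49% the second. Among the 7 members, 1 held the response element core, MTHFD1L, and 2 held the E-box, MTHFD1 and MTHFD1L. Shown 5′ to 3′ on the gene's strand, with matches in capitals, are the windows of MTHFD1L and MTHFD1, which hold the motifs, and of PSAT1 and MTHFD2, which had lower values and hold no match.
MTHFD1L (chr6:150866236-150866485, plus strand): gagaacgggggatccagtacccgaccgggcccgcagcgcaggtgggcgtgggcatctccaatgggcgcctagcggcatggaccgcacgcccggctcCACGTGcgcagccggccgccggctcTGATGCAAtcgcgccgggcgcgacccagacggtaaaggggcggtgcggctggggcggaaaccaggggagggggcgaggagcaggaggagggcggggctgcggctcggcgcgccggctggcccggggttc
MTHFD1 (chr14:64388103-64388352, plus strand): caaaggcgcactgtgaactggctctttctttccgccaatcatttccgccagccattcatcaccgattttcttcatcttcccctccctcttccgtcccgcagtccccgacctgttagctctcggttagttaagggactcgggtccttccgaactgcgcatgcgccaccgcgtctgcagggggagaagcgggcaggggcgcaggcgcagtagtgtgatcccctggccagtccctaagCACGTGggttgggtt
PSAT1 (chr9:78296875-78297124, plus strand): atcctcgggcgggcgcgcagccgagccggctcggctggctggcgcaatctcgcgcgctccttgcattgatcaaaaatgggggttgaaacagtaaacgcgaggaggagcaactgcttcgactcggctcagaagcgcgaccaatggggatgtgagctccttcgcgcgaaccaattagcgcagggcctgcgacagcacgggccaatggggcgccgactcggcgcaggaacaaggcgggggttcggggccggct
MTHFD2 (chr2:74198365-74198614, plus strand): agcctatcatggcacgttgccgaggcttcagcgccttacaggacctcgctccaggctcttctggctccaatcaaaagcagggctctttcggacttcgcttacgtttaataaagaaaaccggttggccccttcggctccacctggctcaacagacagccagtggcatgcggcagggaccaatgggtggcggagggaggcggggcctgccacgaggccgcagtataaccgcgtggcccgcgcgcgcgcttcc

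In MTHFD1L the response element core TGATGCAA begins 129 bases before the start and the E-box 154 bases before it, and in MTHFD1 the E-box begins 15 bases before the start. The genes with a match were thus MTHFD1, which gave -0.10, and MTHFD1L, whose signal was too low to read a difference. PSAT1 and MTHFD2 have no such letters in this window, which says nothing of sites elsewhere. Among the other ATF4 targets examined, the windows of ASNS, which makes asparagine and gave -0.96, and CHAC1 held the response element core, as TGATGAAA and, on the opposite strand, TTGCATCA. Windows of TRIB3 and of CTH, a gene of the list of serine and glycine use, held neither motif. Windows of the remaining genes on the list of other ATF4 targets are not given here. A match is a run of letters and not a measured binding site.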

How the data were processed

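Expression was measured in 4 arrays, 2 of wild-type and 2 of KDM6B knockout HuH7 cells, grouped by sample titles. The deposited values are on a log2 scale and, per the submitters' processing notes, come from RMA in affy, with versions not given in the sources used here. Because RMA gives probe intensities the same distribution on all arrays, a shift common to most genes cannot show. The table held 54613 probe sets between 1.57 and 14.33, of which 41091 had 1 gene symbol, 1801 several and 11721 none. No detection calls were used.

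Knockout was compared with wild type by limma 3.58.1 in R 4.3.3 (lmFit, eBayes with intensity trend, 2 residual and 3.89 prior degrees of freedom), two-sided, on all probe sets with Benjamini-Hochberg adjustment over the table and a threshold of 0.05. A gene was read by its brightest probe set. Steps were tested on simulated data. Probe sets ending in _s_at or _x_at were taken as able to cross-hybridise.

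The rule named all members, KDM6B, ATF4, at most 2 called genes per list and direction, and 1 marker per cell type, its brightest. Genes named beyond it were chosen after their values were seen. Members and lists were chosen with earlier results of these data known. Neighbours were the 10 expressed genes (at or above 5.01) on each side in RefSeq order. Same-numbered arrays did not deviate together (correlation of replicate differences -0.50), so numbers were not taken as pairs. Alternatives covered normalization, trend, filters, probe set choice, threshold, replicate block and left-out arrays. Tables were handled in Python 3.11.15 with pandas 2.3.3.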

Additional observations from a re-analysis of the deposited data

How the results depend on the processing

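Counts below are of all probe sets called (1587 as reported), member probe sets lower (4 of 22), member genes lower (1 of 10), other pathway genes lower (8) and higher (1) and other ATF4 targets lower (9). Without the intensity trend these were 641, 1, 0, 4, 0 and 4. Dropping probe sets able to cross-hybridise, which leaves fewer features, gave 831 in all, 1 of 13 member probe sets, 3 of 42 pathway genes lower and 5 of 8 ATF4 targets. The number as a replicate block left 77, 0, 0, 1, 0 and 0. The crossed pairing, chosen after the data were seen, gave 4349, 10, 6, 16, 3 and 13. At an adjusted p under 0.10 there were 2954 calls. Member genes lower numbered 2 at that threshold, with quantile normalization repeated, among probe sets at or above the median level and with one probe set per gene, and 3 with gene means. Pathway genes higher numbered 2 at that threshold and with repeated normalization, 0 with arrays centred on their medians and 3 with gene means. Leaving out 1 array, with fewer samples, gave 0 to 82 calls in all, 0 to 0 member probe sets and genes lower, 0 to 1 pathway genes lower, 0 to 0 higher and 0 to 0 ATF4 targets.

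The compartment difference of -0.59 was -0.99 with medians over genes, -0.22 without ALDH1L2 and -0.86 to -0.32 with an array left out. The remaining alternatives gave -0.84 to -0.39. All settings except the one without ALDH1L2 kept that gene, so they do not show that the contrast is stable apart from it. The filter on the median level kept ALDH1L2 only through its wild-type arrays. When cross-hybridising probe sets were dropped, PSPH gave 0.00 and MTHFD1L -0.07, and ALDH1L1 0.00 with gene means, none called. Left-out arrays moved SHMT1 between -0.13 and 0.24, MTHFD1L between -0.04 and 0.25 and ALDH1L1 between -0.34 and 0.18. None of the other enzymes changed direction. Nor did KDM6B, ATF4, BHMT2, MTRR, PIPOX, SLC1A4, CTH, SRR, PKM, MYC, CHAC1 or SLC7A11. The direction of other genes named in the text was not followed through the alternatives. Where not set by fewer features or samples, the cause was not tested. Low signal limits SHMT1, ALDH1L1, MTHFD1L and ALDH1L2.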

Other observations

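MTHFD2L, a mitochondrial relative of MTHFD2, was read by 8 probe sets that differed in direction without any being called. Its brightest gave 0.27 (SE 0.15, adjusted p = 0.525), while 220346_at gave -0.70 and 239562_at 0.66. TYMS, the thymidylate synthase that consumes methylenetetrahydrofolate, read 12.19 and 12.16 in wild type, then 12.34 and 12.38 in knockout, a difference of 0.19 that did not pass (adjusted p = 0.341).

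At 16 of the 22 member probe sets (72.7%), either wild type 1 and knockout 2 were the higher arrays of their groups or wild type 2 and knockout 1 were, beside 66.3% of all probe sets. Wide gaps of this kind were those of ALDH1L2 at 231202_at (1.30 in wild type and -1.09 in knockout, array 1 minus array 2) and PSPH at 205194_at (0.73 and -0.66).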
